A study of Mus musculus with 6 samples.

Results

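The genes described here are 10 markers of liver endothelium, taken by their names from a list that was drawn up with earlier results of these data known: *Stab1*, *Stab2*, *Lyve1*, *Clec4g*, *Kdr* and *Gata4* for the identity of sinusoidal cells, *Pecam1* and *Cdh5* for endothelium of any kind, and *Cd34* and *Plvap* for capillary endothelium. All 10 of these symbols were found, once each, among the 25403 genes of the count table. Poly(A) RNA was measured by bulk RNA-seq in the livers of 3 wild-type C57BL6/J mice (WT) and 3 mice that lack *Themis* in the whole body (*Themis*-KO). All 6 animals received the same diet for inducing metabolic dysfunction-associated steatohepatitis (MASH), in which fat gives 40% and fructose 20% of the energy and cholesterol is 2%, for 3 months from an age of 10 to 12 weeks, and no liver on another diet is part of the comparison. The comparison asks how hepatic gene expression differs between the genotypes under this diet. The labels name no sex, litter or day for the 6 livers, so p-values measure the spread between these samples, part of which may be technical.

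The sinusoids of the liver are lined by endothelial cells that are pierced by open pores without a diaphragm (fenestrae) and that rest on almost no basement membrane, so that plasma reaches the hepatocytes directly. These cells clear waste molecules from blood through scavenger receptors such as the stabilins. In chronic liver disease they can lose their pores, gain a basement membrane and take up markers of ordinary capillaries, a change known as capillarization. In a bulk liver library, fewer cells of a type and less RNA per cell cannot be told apart, and the same holds for more cells and more RNA per cell.

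*Themis* itself had CPM (counts scaled to a common library total, after TMM normalization) of 8.07, 25.6 and 12.0 in WT livers 1, 2 and 3, and of 8.63, 7.74 and 9.97 in *Themis*-KO livers 1, 2 and 3. The groups overlapped, so the *Themis* counts did not separate the genotype labels, and the libraries are called by their labels throughout. Library totals on genes ran from 20679642 to 25649767 counts. Libraries WT 1 and WT 2 stood apart from the other 4 in a mitochondrial feature, since *Gm28438* took 96.6% and 96.8% of the summed counts of *Gm28438* and *mt-Nd3* there, and 2.20% to 3.26% in WT 3 and the 3 libraries labelled *Themis*-KO. The labels do not say what separates these 2 libraries, and it is partly confounded with the genotype label. Across all 14496 genes tested by edgeR's quasi-likelihood test, the median log2 fold change (labelled *Themis*-KO over labelled WT) was 0.0095.

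The upstream sequences of 3 of the genes are shown first, since the ETS transcription factors act in endothelial genes through a short core motif. They are the 250 bases before the RefSeq start of *Cd34* (chr1:194938571-194938820, forward strand), *Stab2* (chr10:87007943-87008192, reverse strand) and *Kdr* (chr5:75978456-75978705, reverse strand) in GRCm38.p6, 5′ to 3′. *Cd34* stands for the genes that were higher in livers labelled *Themis*-KO, *Stab2* for sinusoidal genes near their WT level, and *Kdr* for those with a negative difference. Capitals mark the letters AGGAAG or CGGAAG, or these read on the other strand as CTTCCT or CTTCCG.
Cd34: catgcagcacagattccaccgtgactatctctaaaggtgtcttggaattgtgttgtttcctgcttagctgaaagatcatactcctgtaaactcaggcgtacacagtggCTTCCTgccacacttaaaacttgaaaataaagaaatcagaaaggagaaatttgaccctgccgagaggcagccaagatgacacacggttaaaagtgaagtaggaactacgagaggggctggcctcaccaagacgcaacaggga
Stab2: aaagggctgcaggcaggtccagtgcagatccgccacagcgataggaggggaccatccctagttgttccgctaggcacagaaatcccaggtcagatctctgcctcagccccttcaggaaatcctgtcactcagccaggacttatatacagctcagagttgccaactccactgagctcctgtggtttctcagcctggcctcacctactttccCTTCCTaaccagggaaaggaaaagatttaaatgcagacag
Kdr: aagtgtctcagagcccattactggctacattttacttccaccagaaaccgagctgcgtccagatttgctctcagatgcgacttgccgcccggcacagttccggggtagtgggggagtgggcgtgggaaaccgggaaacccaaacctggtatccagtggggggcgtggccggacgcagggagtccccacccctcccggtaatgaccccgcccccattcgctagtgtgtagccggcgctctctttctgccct
The *Cd34* stretch held 1 ETS match, 142 bases before the start, and the *Stab2* stretch held 1, 40 bases before the start. In the GENCODE vM21 annotation the *Stab2* gene reaches to chr10:87008025, inside the printed stretch. By that annotation the *Stab2* match lies within the gene and not upstream of it. The *Kdr* stretch held none, and it was the richest in CG dinucleotides of the 3, with 16 against 6 in *Cd34* and 3 in *Stab2*. Of all 32851 promoter stretches of this length in the table, 39.2% held an ETS match and the median number of CG dinucleotides was 6. The letters of a GATA site (AGATAA or AGATAG or TGATAA or TGATAG on either strand, found in 26.5% of all stretches) occurred once in *Cd34* and in neither of the others. RefSeq entries were matched for 5 of the 10 genes, the other matches being *Stab1* with 2 ETS matches and *Clec4g* with 3. No sequence is shown for *Lyve1*, *Gata4*, *Pecam1*, *Cdh5* and *Plvap*. A match of letters is a description of the sequence and not a binding site.

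Of the 10 endothelial genes, *Lyve1*, *Cd34* and *Plvap* rose in livers labelled *Themis*-KO and none fell. The genes that rose are both capillary markers and 1 sinusoidal gene, *Lyve1*. The other 5 of the 6 sinusoidal identity genes and both pan-endothelial genes did not pass the test. At an adjusted p under 0.05 in edgeR's quasi-likelihood test, the counts were 3 higher and 0 lower, where 4.97% of all genes tested were higher and 4.14% were lower. At an unadjusted p under 0.05 they were 5 higher and 0 lower. The share of all genes at that unadjusted threshold was not counted, here or below. DESeq2 gave 3 higher and 0 lower, and over 25403 genes it called 1207 higher and 1072 lower. The log2 fold change was positive in 8 of the 10, with a median of 0.26, and 51.0% of all genes tested had a positive value. By role, the median was 0.041 for the 6 sinusoidal genes, 0.32 for the 2 pan-endothelial genes and 0.67 for the 2 capillary genes. In 5 genes every liver labelled *Themis*-KO lay above every liver labelled WT, as in 17.7% of all genes tested, and in none did it lie below, as in 16.9% of all genes.

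**Figure D1:**
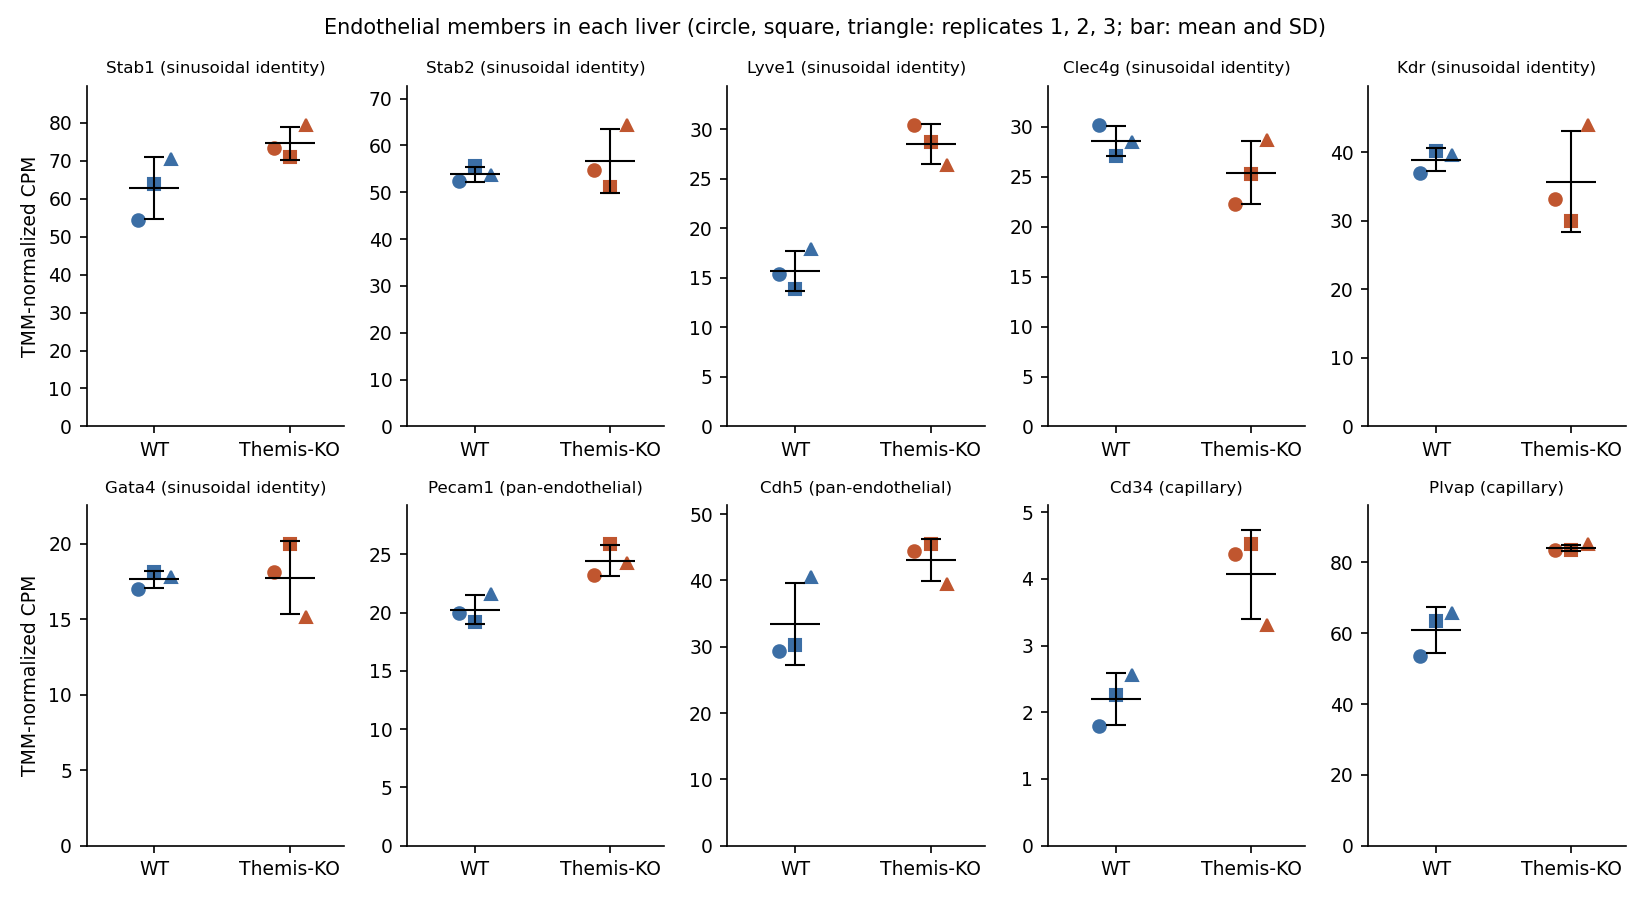
TMM-normalized CPM of each of the 10 endothelial genes (vertical axes, each from 0) in each of the 6 livers, by genotype label. Points are livers, with circles, squares and triangles for replicates 1, 2 and 3, and bars are the mean and SD. The groups are apart in Stab1, Lyve1, Pecam1, Cd34 and Plvap and overlap in the other 5 genes.

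Among the sinusoidal genes, *Lyve1* (ENSMUSG00000030787), which encodes a receptor for hyaluronan, had the largest difference. The gene lies on the reverse strand at chr7:110850607-110863239 of GRCm38. Its CPM was 15.4, 13.9 and 17.9 in livers labelled WT, with a mean of 15.7 ± 2.02 (SD, n = 3), and 30.4, 28.7 and 26.4 in livers labelled *Themis*-KO (mean 28.5 ± 2.05, SD, n = 3). Every liver labelled *Themis*-KO was above every liver labelled WT, and the gap between the groups was wider than the range within either. *Lyve1* rose by a log2 fold change of 0.86 (SE 0.12, edgeR adjusted p = 0.0131), a fold of 1.81 with a 95% interval from 1.50 to 2.19.

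The stabilins are large scavenger receptors that take up hyaluronan and modified proteins. *Stab1* (ENSMUSG00000042286, chr14:31139013-31168641, reverse strand) had CPM of 54.3, 63.9 and 70.4 in livers labelled WT and of 73.4, 70.9 and 79.4 in livers labelled *Themis*-KO. Its groups did not overlap, but WT 3 and *Themis*-KO 2 lay side by side, and the log2 fold change of 0.25 (SE 0.11) did not pass the test (edgeR adjusted p = 0.172). *Stab2* (ENSMUSG00000035459, chr10:86841198-87008025, reverse strand), whose stretch before the RefSeq start is printed above, had CPM of 52.3, 55.5 and 53.7 under the WT label and of 54.7, 51.1 and 64.3 under the *Themis*-KO label. The groups overlapped, and *Themis*-KO 3 was the highest of the 6. Its log2 fold change was 0.074 (SE 0.10, edgeR adjusted p = 0.649), with a 95% interval from −0.16 to 0.31, and it was −0.042 without *Themis*-KO 3.

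The lectin gene *Clec4g* and the receptor gene *Kdr* were the only members with a negative difference, and neither passed the test. *Clec4g* (ENSMUSG00000074491, chr8:3707064-3720651, reverse strand) encodes a C-type lectin of the sinusoidal surface. Its CPM was 30.2, 27.1 and 28.5 in livers labelled WT and 22.3, 25.3 and 28.7 in livers labelled *Themis*-KO, so that *Themis*-KO 1 and 2 were below all livers labelled WT and *Themis*-KO 3 was among them. The log2 fold change was −0.17 (SE 0.11, edgeR adjusted p = 0.326), with a 95% interval from −0.43 to 0.086. *Kdr* (ENSMUSG00000062960, chr5:75932827-75978458, reverse strand) encodes VEGFR2, the main signalling receptor for VEGF-A on endothelium. It had CPM of 37.0, 40.2 and 39.5 under the WT label and of 33.2, 29.9 and 43.9 under the *Themis*-KO label. As with *Clec4g*, *Themis*-KO 1 and 2 were the lowest of the 6 livers, while *Themis*-KO 3 was the highest. Its log2 fold change was −0.13 (SE 0.14, edgeR adjusted p = 0.574), with a 95% interval from −0.46 to 0.20. Without *Themis*-KO 3 it was −0.32 with an edgeR adjusted p of 0.0294, so 1 liver decided whether *Kdr* was called lower. That fit called 2039 of 14806 genes lower, against 600 of 14496 with all libraries.

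*Gata4* (ENSMUSG00000021944, chr14:63198922-63271692, reverse strand) encodes a transcription factor that directs the sinusoidal fate of liver endothelium and is also expressed by stellate cells. Its CPM was 17.0, 18.1 and 17.8 in livers labelled WT and 18.1, 20.0 and 15.2 in livers labelled *Themis*-KO. The livers labelled *Themis*-KO enclosed the WT range on both sides. The log2 fold change was 0.0091 (SE 0.12, edgeR adjusted p = 0.965), with a 95% interval from −0.27 to 0.28, and its sign turned with RLE scaling, with DESeq2 and when single livers were left out.

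Both pan-endothelial genes had a positive difference that did not pass the test after adjustment. *Pecam1* (ENSMUSG00000020717, chr11:106654217-106750628, reverse strand) encodes the adhesion molecule CD31 of endothelial junctions, which platelets and leukocytes also carry. Its CPM was 20.0, 19.2 and 21.6 in livers labelled WT and 23.2, 25.8 and 24.3 in livers labelled *Themis*-KO, without overlap. The log2 fold change was 0.27 (SE 0.092, edgeR adjusted p = 0.0958). *Cdh5* (ENSMUSG00000031871, chr8:104101625-104144511, forward strand) encodes VE-cadherin, which holds neighbouring endothelial cells together. It had CPM of 29.4, 30.3 and 40.5 under the WT label and of 44.4, 45.4 and 39.5 under the *Themis*-KO label. The groups overlapped because WT 3 lay just above *Themis*-KO 3. Its log2 fold change was 0.37 (SE 0.14, edgeR adjusted p = 0.119), and without WT 3 it was 0.53 with an adjusted p of 0.0420. It was 0.090 with the mitochondrial feature as a covariate (edgeR adjusted p = 0.821) and 0.071 in the 4 libraries of the majority type alone.

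Both capillary genes rose. *Cd34* (ENSMUSG00000016494, chr1:194938819-194961279, forward strand), whose upstream sequence is printed above, encodes a sialomucin of capillary endothelium that portal fibroblasts and blood progenitors also carry. It was the least abundant of the 10 genes, with 39, 47 and 65 counts in livers labelled WT and 103, 105 and 70 in livers labelled *Themis*-KO. In CPM these were 1.79, 2.26 and 2.56, with a mean of 2.20 ± 0.391 (SD, n = 3), against 4.38, 4.52 and 3.31, with a mean of 4.07 ± 0.662 (SD, n = 3). The groups did not overlap, and *Themis*-KO 3 was the nearest to the livers labelled WT. *Cd34* rose by a log2 fold change of 0.88 (SE 0.21, edgeR adjusted p = 0.0442), a fold of 1.84 whose 95% interval ran from 1.31 to 2.60. That interval was the widest of the 3 genes called, at the lowest counts.

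*Plvap* (ENSMUSG00000034845, chr8:71497765-71511752, reverse strand) encodes the protein of the diaphragms that span capillary pores and caveolae, a structure that open sinusoidal fenestrae lack. Its CPM was 53.6, 63.6 and 65.7 in livers labelled WT, with a mean of 61.0 ± 6.48 (SD, n = 3), and 83.5, 83.5 and 85.1 in livers labelled *Themis*-KO (mean 84.0 ± 0.920, SD, n = 3). The groups did not overlap, and the livers labelled *Themis*-KO lay close together. *Plvap* rose by a log2 fold change of 0.46 (SE 0.095, edgeR adjusted p = 0.0335), a fold of 1.38 with a 95% interval from 1.18 to 1.61. In the exact two-sided permutation test of single genes, which with 3 livers against 3 cannot go below p = 0.1, the 5 genes without overlap each gave 0.1.

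**Figure D2:**
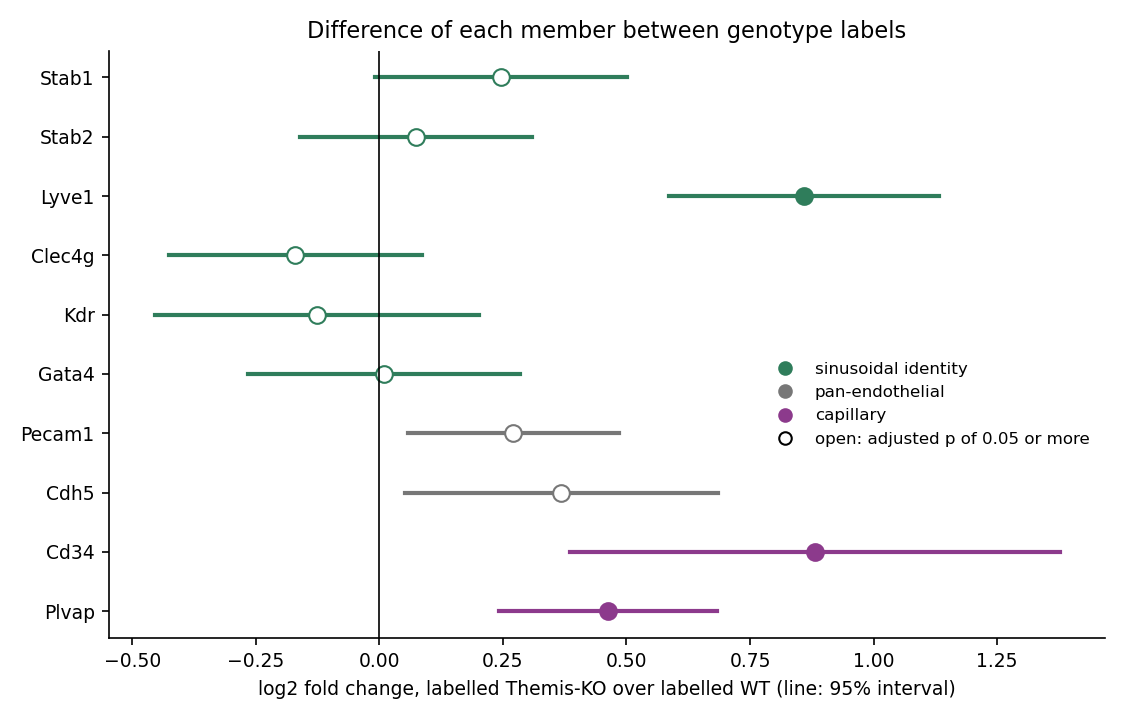
Log2 fold change of each endothelial gene (horizontal axis, labelled Themis-KO over labelled WT) with its 95% interval from edgeR, coloured by role. Filled points have an adjusted p under 0.05, which Lyve1 at 0.86, Cd34 at 0.88 and Plvap at 0.46 reached, and the intervals of Stab1, Stab2, Clec4g, Kdr and Gata4 span 0.

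Under some alternatives edgeR called few genes of any kind, and *Lyve1*, *Cd34* and *Plvap* lost their calls with the rest. With the mitochondrial feature as a covariate, 0 of all 14496 genes were called higher and 3 lower, and 2 of the 10 endothelial genes were higher at an unadjusted p under 0.05. The log2 fold changes there were 0.67 for *Lyve1* (edgeR adjusted p = 0.302), 0.67 for *Cd34* (0.498) and 0.36 for *Plvap* (0.455). In the 4 libraries of the majority type alone, with WT 3 as the single WT library and its spread taken from the others, 0 of 15323 genes were called higher and 9 lower, and the log2 fold changes were 0.65 (edgeR adjusted p = 0.503), 0.65 (0.613) and 0.34 (0.603). Each of the 3 genes lost its call without WT 1, WT 2, *Themis*-KO 1 or *Themis*-KO 2, and *Cd34* also without WT 3. Over all genes, the first 4 of these fits called 12, 19, 8 and 27 genes higher, against 721 with all libraries. The fit without WT 3 called 481 higher and 369 lower. Without *Themis*-KO 3 the calls rose to 2228 higher and 2039 lower. The log2 fold changes of the 3 genes over the fits that left out 1 library stayed between 0.77 and 0.96 for *Lyve1*, 0.75 and 1.01 for *Cd34*, and 0.38 and 0.52 for *Plvap*. With the replicate number as a block, 17 of all genes were called higher and 45 lower, and the 10 endothelial genes gave 0 calls and 4 higher at an unadjusted p under 0.05. With the mitochondrial covariate the log2 fold changes of *Cdh5*, *Stab1* and *Pecam1* were also smaller, at 0.090, 0.084 and 0.18. Those of *Stab2* (0.077), *Clec4g* (−0.17), *Kdr* (−0.15) and *Gata4* (−0.0028) stayed near their values without it.

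Levels of different genes were compared as CPM per kilobase of merged exon. In livers labelled WT, *Plvap* had the highest level with 30.7 CPM per kilobase and *Cd34* the lowest with 0.302. Between them came *Clec4g* (11.6 CPM per kilobase), *Cdh5* (7.94), *Stab2* (6.15), *Stab1* (6.11), *Lyve1* (5.38), *Gata4* (4.52), *Kdr* (4.31) and *Pecam1* (3.25). *Stab2* and *Stab1*, *Stab1* and *Lyve1*, and *Gata4* and *Kdr* are neighbours in this order whose values overlapped between livers. In livers labelled *Themis*-KO, *Plvap* was again first at 42.3 CPM per kilobase and *Cd34* last at 0.558. *Lyve1* stood at 9.76 CPM per kilobase there, next to *Clec4g* and *Cdh5* (both 10.3) and above *Stab1* (7.25) and *Stab2* (6.48), while under the WT label it was below both stabilins. Its values overlapped those of *Cdh5* in these livers, as did those of *Clec4g* and *Cdh5*, *Stab1* and *Stab2*, *Gata4* and *Kdr*, and *Kdr* and *Pecam1*.

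Ratios within a liver do not depend on how libraries are scaled to each other, so the endothelial genes were also set against one another. The log2 ratio of *Cd34* to the mean log2 CPM of the 6 sinusoidal genes was −4.10, −3.80 and −3.70 in livers labelled WT and −2.97, −2.92 and −3.48 in livers labelled *Themis*-KO. That of *Plvap* was 0.81, 1.01 and 0.98 against 1.28, 1.29 and 1.20. Both ratios were higher in every liver labelled *Themis*-KO, by 0.74 for *Cd34* and 0.32 for *Plvap* on the log2 scale, or 1.67-fold and 1.25-fold. The ratio of *Cdh5* differed by 0.24 with overlap. That of *Pecam1* differed by 0.13, and its groups touched but for a narrow gap, which closed when *Gata4* was left out of the mean. Thus 3 of these 4 ratios were higher without overlap, where 8.73% of all other genes had a higher and 31.1% a lower ratio to the same mean without overlap. With *Stab2* alone in place of the mean, the differences of *Cd34* and *Plvap* were 0.82 and 0.40, again without overlap. The share of all genes without overlap was not counted for *Stab2* alone. No test was run on these ratios.

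Relative to *Pecam1* in the same liver, *Lyve1* was higher by 0.59 and *Cd34* by 0.61 on the log2 scale, in every liver labelled *Themis*-KO. *Plvap* was higher by 0.20 with overlap, so its position relative to *Pecam1* was not separated by label. *Clec4g*, *Kdr* and *Gata4* had lower ratios to *Pecam1* without overlap, by −0.45, −0.42 and −0.27, and the gap was narrow for *Kdr*, with 0.869 in WT 3 and 0.855 in *Themis*-KO 3. A lower ratio to *Pecam1* without overlap was common, at 40.7% of all other genes tested, and a higher one was found in 5.93%. The 3 of 9 lower ratios are therefore no larger a share than the background. The ratio of *Stab1* to *Pecam1* differed by −0.019, less than the SD of either group. With *Cdh5* as the denominator, *Lyve1* (0.48) and *Cd34* (0.50) were again apart and higher, and the ratios of *Clec4g*, *Kdr* and *Gata4* overlapped. For this denominator the share of all genes without overlap was not counted. The ratio of *Plvap* to *Cdh5* differed by 0.087 with overlap, less than the SD of either group.

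**Figure D3:**
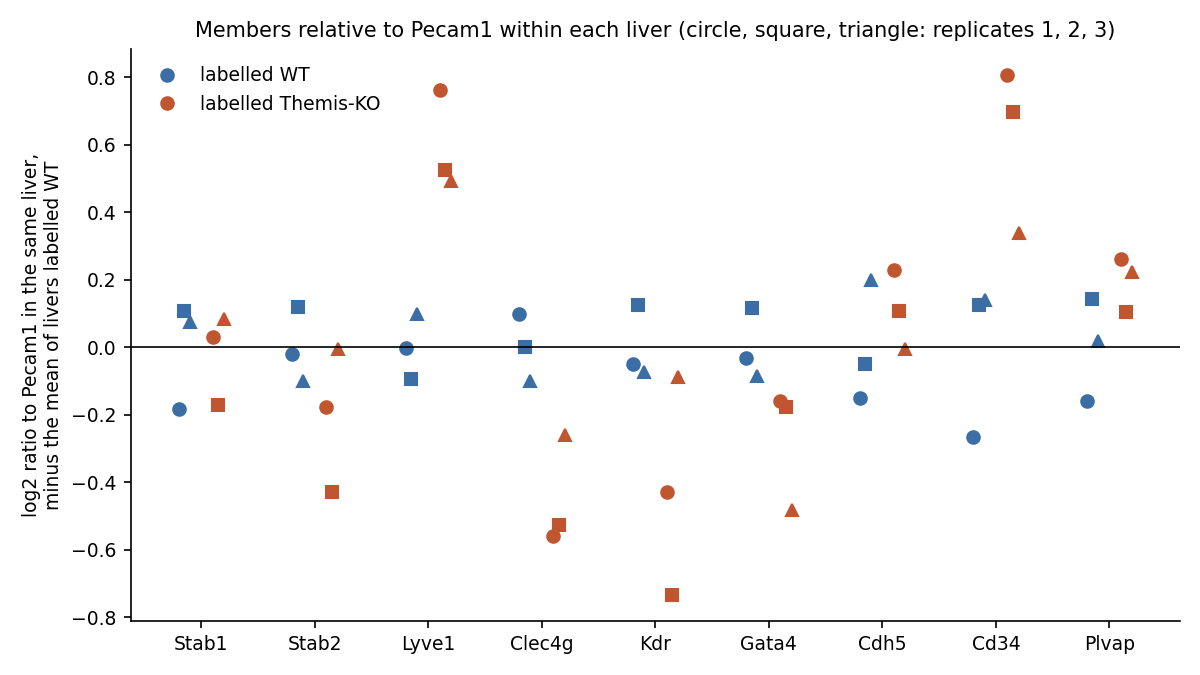
Log2 ratio of each endothelial gene to Pecam1 in the same liver, minus the mean of the livers labelled WT (vertical axis), with circles, squares and triangles for replicates 1, 2 and 3. Lyve1 and Cd34 lie higher in all 3 livers labelled Themis-KO, Clec4g, Kdr and Gata4 lie lower, and Stab1, Stab2, Cdh5 and Plvap overlap.

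Other endothelial genes were grouped by role in 8 lists and tested in the same fit, which called 4.97% of all genes tested higher and 4.14% lower. None of the genes in these lists was called lower by edgeR, with 2 lower at an unadjusted p under 0.05 and 1 by DESeq2, all of them among the VEGF ligands and coreceptors. Of 12 further sinusoidal genes tested, edgeR called 0 (3 higher at an unadjusted p under 0.05, and 1 by DESeq2), and their median log2 fold change was 0.11. The highest CPM, a measure that does not correct for length, were those of *Maf*, a transcription factor of sinusoidal cells and macrophages, with 68.2 to 70.6 CPM under the WT label and 74.9 to 84.3 under the *Themis*-KO label, and of *Fcgr2b*, an Fc receptor that clears immune complexes, with 40.8 to 49.2 and 43.1 to 52.0 CPM. *Maf* did not overlap but did not pass the test (log2 fold change 0.20, edgeR adjusted p = 0.135), and *Fcgr2b* overlapped. Of these 12 genes, 10 had a positive log2 fold change and 3, with *Maf* among them, were higher without overlap. Over all genes tested, 17.7% were higher without overlap. Of 5 pericentral endothelial genes edgeR called 0, as did DESeq2 and the unadjusted p under 0.05, with a median of 0.015. Those with the highest CPM were the Wnt signalling enhancer *Rspo3* (log2 fold change 0.048) and the receptor kinase gene *Kit* (0.015), both with overlap. Of 6 periportal and arterial genes edgeR and DESeq2 called 0 (3 higher at an unadjusted p under 0.05), with a median of 0.38. There, *Ltbp4*, which binds latent TGF-β, overlapped (log2 fold change 0.093), and the guidance molecule *Ntn4* did not (0.45, edgeR adjusted p = 0.0764).

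Of 19 further pan-endothelial genes tested, edgeR called 1 higher, a share close to the 4.97% of all genes tested. At an unadjusted p under 0.05, 6 were higher, and DESeq2 called 1. The log2 fold change was positive in 17 of the 19, where 51.0% of all genes tested had a positive value. Without overlap 8 of the 19 were higher, where 17.7% of all genes tested were. The median log2 fold change of the 19 was 0.26, the same to 2 decimals as that of the 10 genes above. The gene called was *Rasip1*, which encodes a regulator of endothelial junctions and lumen formation, at 10.6, 13.3 and 13.3 CPM in livers labelled WT and 21.3, 20.0 and 16.4 in livers labelled *Themis*-KO (log2 fold change 0.64, SE 0.14, edgeR adjusted p = 0.0389). Those with the highest CPM, *Eng*, a coreceptor for TGF-β family ligands, and *Ptprb*, a phosphatase of endothelial cells, had log2 fold changes of 0.14 and −0.065, both with overlap.

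Among 9 tested genes of capillary and continuous endothelium beside *Cd34* and *Plvap*, 2 were higher, where 4.97% of all genes tested were. The median log2 fold change of the 9 was 0.65. *Esm1*, a secreted proteoglycan of activated endothelial tips, had CPM of 3.30, 3.55 and 3.47 under the WT label and of 7.90, 6.80 and 7.70 under the *Themis*-KO label, and rose by a log2 fold change of 1.12 (SE 0.14, edgeR adjusted p = 0.0118). *Fabp4*, a fatty acid carrier of capillary endothelium that adipocytes and macrophages also express, had 32.2, 25.2 and 37.3 CPM against 64.7, 61.4 and 50.3 (log2 fold change 0.90, SE 0.16, edgeR adjusted p = 0.0246). *Col15a1*, a basement membrane collagen with the next highest CPM, had a log2 fold change of 0.27 with overlap (SE 0.22, edgeR adjusted p = 0.447). The capillary genes thus differed among themselves, with a range from −0.24 to 1.27.

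Of 4 endothelial adhesion molecules, 2 were higher, where 4.97% of all genes tested were. *Vcam1*, which binds leukocyte integrins, had 24.9, 24.4 and 31.7 CPM in livers labelled WT and 56.1, 63.1 and 53.3 in livers labelled *Themis*-KO, a log2 fold change of 1.09 (SE 0.13, edgeR adjusted p = 0.00936). *Icam1*, another ligand of leukocyte integrins, had 17.2, 14.5 and 21.3 against 41.5, 37.7 and 23.4 CPM, with *Themis*-KO 3 just above WT 3 (log2 fold change 0.95, SE 0.23, edgeR adjusted p = 0.0426). Other liver cells express both of them. Of 7 genes of shear stress and vasoactive signalling, *Nos3*, the endothelial nitric oxide synthase, was the 1 gene called (3 by DESeq2), with 3.67, 4.32 and 4.26 CPM under the WT label and 7.52, 7.61 and 5.43 under the *Themis*-KO label (log2 fold change 0.75, SE 0.18, edgeR adjusted p = 0.0429). At an unadjusted p under 0.05, 4 of these 7 genes were higher. Their median log2 fold change was 0.75, the value of *Nos3* itself, and 5 of the 7 had a positive value. The genes of this list with larger differences than *Nos3* overlapped between the groups and did not pass the test in edgeR. Those with the highest CPM, the flow-responsive factor *Klf2* and *Nostrin*, which binds the synthase, had differences of 0.29 and −0.046 with overlap. Of 6 tested ligands and coreceptors of the VEGF receptors, edgeR called 0. The log2 fold change was positive in 4 of the 6, with a median of 0.33. *Vegfb* (0.40, edgeR adjusted p = 0.0938) and *Vegfd* (0.53, 0.262) were higher without overlap, the latter at only 11 to 21 counts per liver. Of all genes tested, 17.7% were higher and 16.9% lower without overlap. *Vegfa*, the ligand of *Kdr*, was below its WT range in each liver labelled *Themis*-KO, with 212, 195 and 196 CPM against 170, 143 and 174 (log2 fold change −0.31, SE 0.10, edgeR adjusted p = 0.0850), and so was the coreceptor *Nrp1* (−0.42, SE 0.15, edgeR adjusted p = 0.103).

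The calls of the 6 genes named as higher in these lists were lost in part of the fits that left out 1 library. They were called in 4 of 6 such fits for *Vcam1*, 3 for *Esm1*, 2 for *Fabp4* and 1 each for *Rasip1*, *Icam1* and *Nos3*. Their log2 fold changes in these fits stayed between 1.01 and 1.22 for *Vcam1*, 1.07 and 1.17 for *Esm1*, 0.76 and 1.03 for *Fabp4*, 0.53 and 0.72 for *Rasip1*, 0.79 and 1.15 for *Icam1*, and 0.66 and 0.87 for *Nos3*. With the mitochondrial covariate, under which no gene was called higher, the log2 fold changes of *Esm1*, *Vcam1*, *Nos3*, *Icam1*, *Fabp4* and *Rasip1* were 1.10, 0.86, 0.69, 0.68, 0.66 and 0.54.

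**Figure D4:**
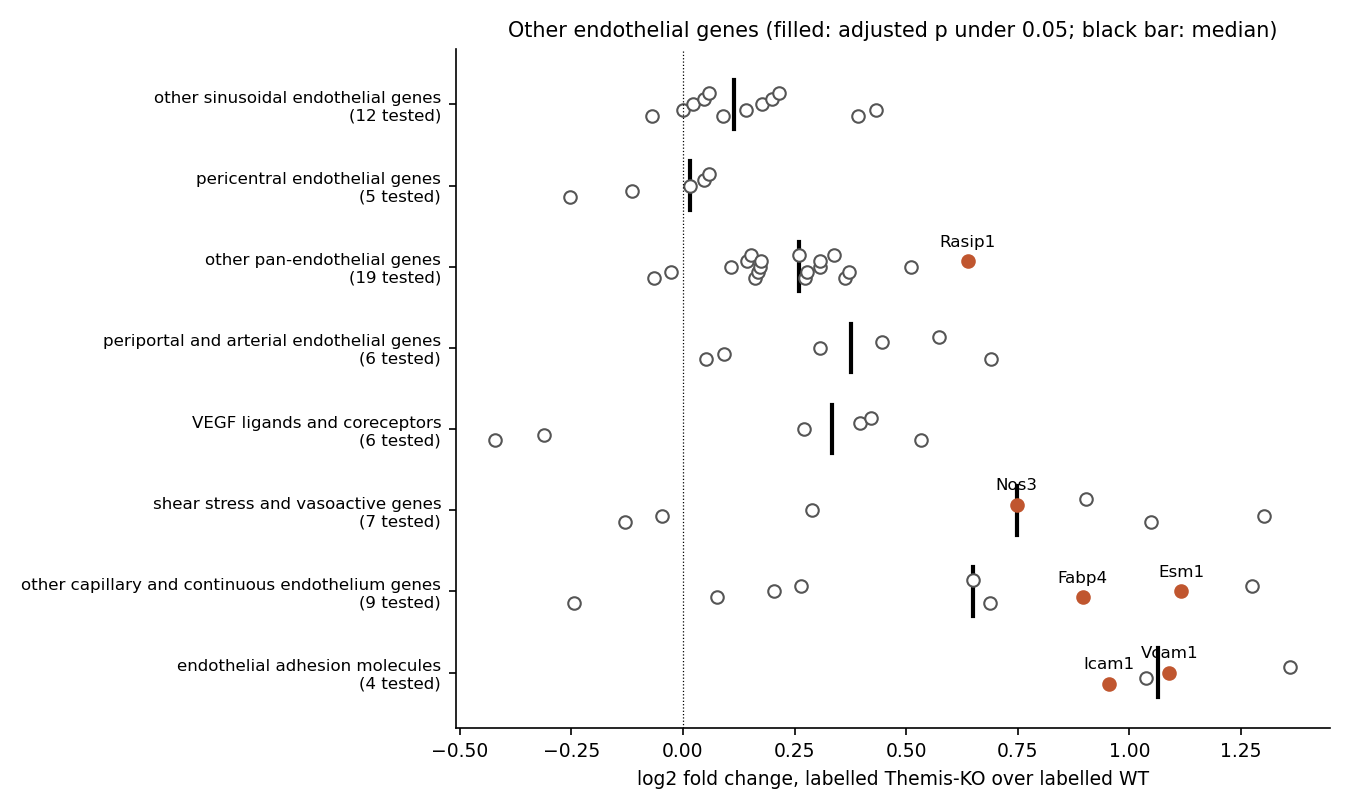
Log2 fold change (horizontal axis, labelled Themis-KO over labelled WT) of every tested gene in 8 lists of other endothelial genes, with the black bar at the median. Filled points have an adjusted p under 0.05 from edgeR. The medians of the sinusoidal and pericentral genes are 0.11 and 0.015, with single genes as far out as 0.43 and −0.25, and the genes called lie in the lists of pan-endothelial, vasoactive, capillary and adhesion genes.

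Several of the genes called are not limited to endothelium, so markers of other liver cells were summed in the same libraries. For comparison with the calls below, edgeR called 4.97% of all genes tested higher and 4.14% lower. Lymphatic endothelium also carries *Lyve1*. Of its 5 markers, *Pdpn* stood at no more than 0.298 CPM and was not tested, and 0 of the other 4 were called by edgeR, by DESeq2 or at an unadjusted p under 0.05. Their sum was 164 to 216 CPM under the WT label and 157 to 168 under the *Themis*-KO label, nearly all from *Prox1* and *Reln*, which other liver cells also express. Macrophages can carry *Lyve1* and *Stab1*, and the summed CPM of 12 macrophage markers was 384 to 624 in livers labelled WT and 668 to 866 in livers labelled *Themis*-KO, with 5 markers called higher (8 by DESeq2). The 12 markers of stellate cells and fibroblasts, some of which carry *Gata4*, summed to 454 to 520 against 694 to 756 CPM, with 5 called higher (6 by DESeq2). Of 7 markers of portal fibroblasts and mesothelium, which can carry *Cd34*, 5 were tested and edgeR called 0 (1 higher at an unadjusted p under 0.05, and 2 by DESeq2), and the sums were 14.8 to 17.0 against 22.0 to 23.4 CPM. Platelet markers summed to 3.21 to 4.17 against 5.01 to 5.31 CPM, with *Pf4* called higher of 2 tested, and 6 leukocyte markers to 17.3 to 29.1 against 28.4 to 37.6 CPM, with 0 called by edgeR (3 higher at an unadjusted p under 0.05, and 1 by DESeq2). The 12 hepatocyte markers summed to between 65651 and 68768 CPM under the WT label and between 50074 and 55544 under the *Themis*-KO label, with 4 called lower (8 by DESeq2). The 9 cholangiocyte markers summed to 168 to 208 against 400.4 to 632 CPM, with 2 of the 8 tested called higher (3 by DESeq2). Most of this sum was *Spp1*, which other liver cells also express, at 137 to 180 against 366 to 571 CPM, and without it the other 8 summed to 28.0 to 32.2 against 61.8, 33.3 and 37.2 CPM, with *Themis*-KO 1 the highest. No listed marker was at 0 in all 6 livers. The part of these other cells in the endothelial values was not tested.

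Overlapping annotation touched 4 of the 10 genes, each on the opposite strand, and whether the counting used strand is not given in the sources used here. *Stab1* shared 112 of its 10288 exon bases with *Nt5dc2*, which had 158 to 253 counts per liver. *Cd34* shared 148 of 7290 with *Gm16897*, *Stab2* shared 141 with *Gm16268*, and *Clec4g* shared 146 with *Gm16553*, and these partners had no more than 6 counts in any liver.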

How the data were processed

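The groups were taken from the genotype labels of the 6 livers. Per the labels and the Methods, paired-end poly(A) libraries were trimmed, aligned to GRCm38 and counted per gene; the submitters' processing notes name cutadapt 2.3, STAR 2.7.8a and RSEM 1.3.3. The authors deposited estimated counts per gene and liver without normalization, which are whole numbers in the table. RSEM divides reads that fit several genes. The annotation release is not given in the sources used here, and coordinates, exon lengths and overlaps come from GENCODE vM21.

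The 10 genes and all other lists were chosen with earlier results of these data known. All genes were fitted together with edgeR 4.0.16, limma 3.58.1 and R 4.3.3: filterByExpr (which removed 10907 genes), TMM, glmQLFit and glmQLFTest without covariates on 6 livers, and Benjamini-Hochberg adjustment over 14496 genes, with calls at an adjusted p under 0.05. SEs were derived from the fold change and its F statistic. The biological coefficient of variation was 0.157. CPM carry no prior count. Libraries held 20679642 to 25649767 counts. No pair of libraries within a group agreed within sampling noise (chi-square per degree of freedom of at least 9.12). The lowest value was that of *Themis*-KO 1 and 2, while *Themis*-KO 3 gave 37.8 and 38.9 against them. Pairs of WT libraries gave 25.4 to 33.3.

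The text names all 10 genes, and, of each list of endothelial genes, up to 5 genes called and the 2 with the highest mean CPM; other cell types are given as summed CPM. *Gm28438*, *mt-Nd3*, *Pdpn*, *Vegfb*, *Vegfd*, *Spp1*, *Prox1*, *Reln* and *Pf4* were named after their values were seen. Alternatives were RLE and upper quartile factors, total counts alone, DESeq2 1.42.0, no filter and a minimum of 10 counts in each liver. Others were the replicate number as a block, the mitochondrial feature as a covariate, each liver left out, other thresholds and other denominators. The fit of the majority-type libraries alone and *Cdh5* as denominator were added after seeing the data. The fits were tested on simulated data. Figures were drawn with matplotlib 3.10.9.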

Additional observations from a re-analysis of the deposited data

How the results depend on the processing

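The count of the 10 endothelial genes called higher was 3. It was 0 with the replicate block and 0 with the mitochondrial feature as a covariate, fits that called 17 and 0 of all genes higher. It was 0 with a further cutoff of 2-fold, and 5 at an unadjusted p under 0.05. Leaving out single livers gave 0 to 3, and the count called lower from 0 to 1, the 1 being *Kdr* without *Themis*-KO 3. That fit called 2039 of 14806 genes lower. RLE and upper quartile factors, no filter, the stricter filter and DESeq2 each gave 3 higher. Scaling by total counts alone gave 4, with *Pecam1* added, and moved the median log2 fold change of all genes to 0.15.

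The direction of *Lyve1*, *Cd34*, *Plvap*, *Stab1*, *Pecam1*, *Cdh5* and *Clec4g* held under every alternative run. *Stab2* ranged from −0.042 (without *Themis*-KO 3) to 0.14 with single livers left out, and *Kdr* was 0.0076 with total counts alone. *Gata4* was −0.0015 with RLE factors, −0.0033 with no filter, −0.0046 with DESeq2, −0.0028 with the covariate, −0.022 in the majority-type livers, and ranged from −0.091 to 0.094 with single livers left out, being negative without WT 1, *Themis*-KO 1 or *Themis*-KO 2. The 4 ratios to sinusoidal genes moved by less than the larger of the group SDs with other denominators and with each liver left out.

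The replicate numbers share only a number: same-numbered livers had a mean correlation of −0.13 in their deviations from the group means, and others 0.066. With the replicate block, the log2 fold changes of *Lyve1*, *Cd34* and *Plvap* were 0.86, 0.88 and 0.47 (edgeR adjusted p = 0.0643, 0.126 and 0.10). Over all genes the block left 17 higher and 45 lower calls, against 721 and 600 without it. *Rasip1* (0.64), *Fabp4* (0.91), *Esm1* (1.11), *Icam1* (0.93) and *Nos3* (0.73) lost their calls with the block at these log2 fold changes, and *Vcam1* (1.10, edgeR adjusted p = 0.0486) was called. With the covariate, which left no gene called higher, their edgeR adjusted p ran from 0.197 to 0.499. Depth limits *Cd34* most, at 39 to 105 counts per liver.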
